A study of Drosophila erecta with 23 samples.

Results

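The comparison set the start of organogenesis against the hours just before it, in whole embryos of the fruit fly *Drosophila erecta*. Its members were 6 of the 23 hourly libraries of the series, defined by embryo age: 8-9, 9-10 and 10-11 h after egg laying form the 8-11 h window, and 11-12, 12-13 and 13-14 h form the 11-14 h window. All embryos came from wild-type flies of the reference genome strain kept in population cages, were laid within 1 h, aged, and snap-frozen without treatment, so both windows share strain, tissue and handling and differ by age. Each hour is 1 sample of total RNA from many embryos. The 3 hours of a window are therefore consecutive ages and not repeats of a condition, and every spread or p-value below includes the change that takes place inside a window.

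In fly embryos the body plan is laid down first, by short-lived regulators of axis, segment and cell identity, and the organ primordia then differentiate, each turning on the genes of its own function. RAMPAGE follows this at the promoter: it keeps only cDNAs that reach the capped 5′ end of an RNA, so that the first base of a read marks a transcription start site. Neighbouring start sites are grouped into transcription start site clusters (TSCs), which stand for promoters, and the number of reads in a TSC measures the RNA started there and still present. Fewer cells of a type and less RNA per cell cannot be told apart in whole embryos. The files pair no gene identifier with a name, so genes are given by identifier or by the position of their promoter, and lists of pathway and cell type marker genes were not applied. The labelled ages were for this reason not checked against marker genes.

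The 6 libraries held 5835919, 11300975 and 3402363 reads in TSCs at 8-9, 9-10 and 10-11 h, and 2635289, 1043634 and 6735630 at 11-12, 12-13 and 13-14 h. Values are in RPM, the reads of a TSC or gene divided by those of its library and put on a fixed scale, and 1 read was worth from 0.0885 RPM at 9-10 h to 0.958 RPM at 12-13 h, the shallowest of the 6 libraries. A count of 0 there allows a level of up to 2.87 RPM, counting error only. Between 6827 and 7404 of the 8948 genes in the gene table reached 2 RPM in each of these libraries.

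The question was how much of the promoter repertoire moved as organs began to form. Over 7207 genes with enough reads, the rank correlation between hours ranged from 0.913 to 0.952 within the 8-11 h window, from 0.898 to 0.912 within the 11-14 h window and from 0.788 to 0.920 between hours of different windows. The highest of these 9 values between windows was that of the adjoining hours 10-11 h and 11-12 h, which is as high as values within the later window. From 1 hour to the next, 12.4% of the 5350 genes with a mean of at least 10 RPM differed by 2-fold or more between 8-9 and 9-10 h, 13.0% between 9-10 and 10-11 h, 16.4% across the boundary, 21.2% between 11-12 and 12-13 h and 16.7% between 12-13 and 13-14 h. The shallow 12-13 h library took part in both of the last steps, and its part in them was not tested. All correlations are across genes, which are not independent replicates.

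More genes rose than fell. limma, on log2(RPM + 1), called 285 of 7207 genes higher at 11-14 h, which is 3.95% of those tested, and 93 genes lower, which is 1.29%. All of these changes were at least 2-fold on that scale, with a median log2 difference of 2.35 among the genes that rose and -1.95 among those that fell, and 37 and 10 genes respectively passed 8-fold. The genes that rose were low before: their median level was 5.62 RPM at 8-11 h and 33.5 RPM at 11-14 h. The genes that fell started high, at a median of 99.0 RPM, and were at 25.8 RPM in the later window. Without any test, the 3 hours of the later window lay wholly above the 3 earlier ones in 17.2% of genes and wholly below them in 14.5%.

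The number of calls hung on single hours. Leaving out 8-9 h, 12-13 h or 13-14 h gave 0 genes by limma, with 1338, 1661 and 1417 genes at an unadjusted p under 0.05, and leaving out 9-10 h gave 2 genes. Leaving out 10-11 h gave 495 genes and leaving out 11-12 h gave 553. With all 6 libraries the quasi-likelihood test of edgeR called 407 genes (304 higher, 103 lower), and DESeq2 called 1121.

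**Figure D1:**
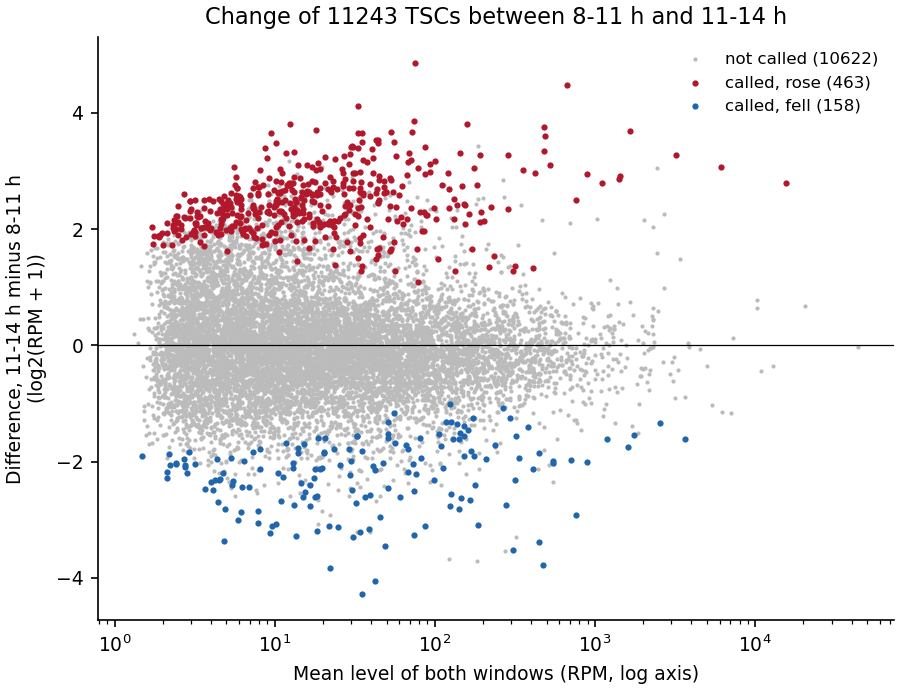
Each point is 1 of 11243 TSCs, with its mean level over both windows in RPM (log axis) and its difference between 11-14 h and 8-11 h on the log2(RPM + 1) scale. Red points are the 463 TSCs that limma called higher at 11-14 h, blue points the 158 called lower, and grey points were not called.

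The gene that rose most, FBgn0035056, was read from a TSC of 60 bp on the plus strand of scaffold 4845 (22008777 to 22008836). It stood at 3.40, 2.46 and 6.42 RPM at 8-9, 9-10 and 10-11 h and at 100.3, 211.0 and 124.9 RPM at 11-12, 12-13 and 13-14 h. Every hour of the later window was thus more than 10-fold above every earlier hour. Its window means were 4.09 ± 2.07 RPM and 145.4 ± 58.1 RPM (SD, n = 3 hours each), a log2 difference of 4.85 ± 0.41 (SE, adjusted p = 0.0076). Outside the comparison its mean went from 3.73 RPM at 2-4 h to 124.9 RPM at 14-17 h and back to 4.06 RPM at 17-20 h, a pulse with its highest value of 279.7 RPM at 14-15 h.

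FBgn0036352, from a TSC of 43 bp on the plus strand of scaffold 4784 (13390001 to 13390043), reached a higher level. It was at 44.6, 27.7 and 131.6 RPM in the earlier hours and at 1025, 1164 and 1583 RPM in the later ones, and the windows did not overlap. The log2 difference was 4.47 ± 0.52 (SE, adjusted p = 0.018). It was back at 361.7 RPM at 14-17 h and 32.8 RPM at 17-20 h.

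The other 8 genes among the 10 that rose most had log2 differences from 3.45 to 3.85. The most abundant of them was read from scaffold 4784, 8279182 to 8279315 on the minus strand. It went through 158.9, 181.4 and 431.8 RPM to 2363, 3671 and 3045 RPM, and was at 599.9 RPM at 14-17 h. A gene on the minus strand of scaffold 4770 (TSC at 10787052 to 10787214) rose later within the window, with 32.0, 55.4 and 84.9 RPM followed by 267.9, 926.8 and 1519 RPM, and went on to 2221 RPM at 14-15 h. By contrast, a gene read at 13095204 to 13095249 on the minus strand of scaffold 4845 was at 1.02, 1.32 and 2.33 RPM and then at 17.3, 51.3 and 35.1 RPM. It had its highest value of 51.8 RPM in the last hour of the series. That value exceeded the 51.3 RPM of 12-13 h by less than 1 read of the 12-13 h library was worth. Of the 10 genes, this gene alone had its highest value after 17 h. The rise at this boundary was fixed by how the 10 genes were chosen, while their levels from 14 h on, which the choice did not use, differed from gene to gene.

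Of the genes that fell, FBgn0025885 fell most. Its TSC of 83 bp lies on the plus strand of scaffold 4929 (19251633 to 19251715), and it stood at 89.7, 74.2 and 35.0 RPM and then at 6.76, 0 and 3.39 RPM. The value at 12-13 h rests on 0 reads, which allows up to 2.87 RPM. The decline was already under way at 10-11 h, and the log2 difference was -4.27 ± 0.74 (SE, adjusted p = 0.026). It remained between 0.52 and 1.50 RPM in the 3 later windows.

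FBgn0261434, from scaffold 4770 (525672 to 525733, minus strand), was at 56.8, 47.5 and 22.2 RPM before and at 1.13, 1.90 and 2.65 RPM after, with no overlap and a log2 difference of -3.83 ± 0.44 (SE, adjusted p = 0.018). It had been higher still earlier, with 87.7 RPM at 2-4 h and 136.5 RPM at 6-7 h, and returned to 14.9 RPM at 14-17 h.

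The other 8 genes among the 10 that fell most differed by -3.35 to -3.07 on the log2 scale. The most abundant, read mainly from scaffold 4845 (19418163 to 19418549, plus strand), fell from 776.9, 1112 and 565.4 RPM to 80.8, 71.3 and 76.7 RPM, a level that hardly moved within the later window, and stood at 223.2 RPM at 14-17 h. Its log2 difference was -3.35 ± 0.29 (SE, adjusted p = 0.0076). Several had their height long before the comparison. The gene at scaffold 4770, 2940390 to 2940467 on the plus strand, was at 554.0 RPM at 2-4 h, at 39.1, 25.4 and 37.0 RPM in the hours of the 8-11 h window, and at 2.63, 2.85 and 2.65 RPM in those of the 11-14 h window. The gene at scaffold 4784, 21735094 to 21735381 on the plus strand, was at 426.6 RPM at 2-4 h and went through 73.3, 59.4 and 36.8 RPM to 6.76, 3.80 and 3.83 RPM.

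Others of the 10 fell with a steep slope inside the 8-11 h window. The gene at scaffold 4644, 210078 to 210091 on the plus strand, was at 125.7, 70.3 and 17.5 RPM and then at 9.77, 4.75 and 2.80 RPM, and a gene read mainly at scaffold 4784, 9281246 to 9281285 on the plus strand, was at 111.1, 69.6 and 12.5 RPM and then at 4.13, 5.70 and 3.39 RPM. For both, the step before 10-11 h was larger than that across the window boundary, and their adjusted p was the highest among the 20 genes, at 0.044 and 0.046 by limma. The step before 10-11 h was also the larger in the gene at scaffold 4820, 6190754 to 6190775 on the plus strand. It was at 623.8, 293.9 and 97.4 RPM and then at 45.1, 17.1 and 33.4 RPM.

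All 20 genes kept their direction under each of the 15 alternative settings. They were chosen with windows that did not overlap, so leaving out an hour or changing the pseudocount could not reverse them. Calls were lost as the counts were: of the 20, 0 passed the limma threshold without 8-9 h, 12-13 h or 13-14 h, and 2 without 9-10 h, where the highest adjusted p was 0.175. By edgeR and by DESeq2 all 20 passed with the 6 libraries.

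**Figure D2:**
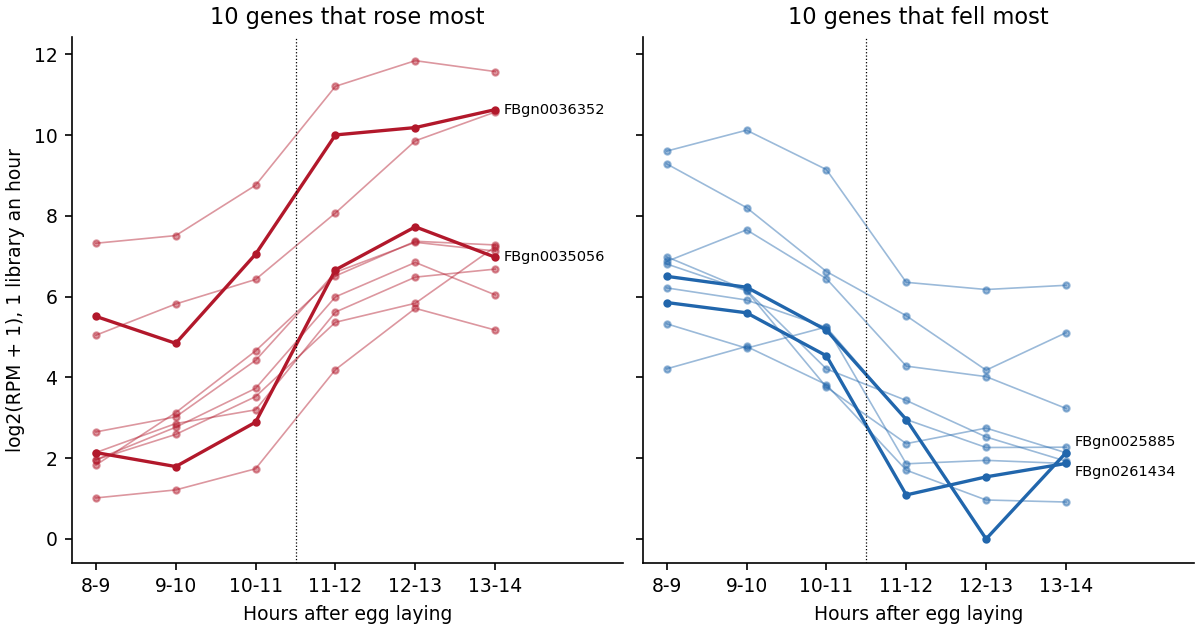
Level of the 10 genes that rose most (left) and the 10 that fell most (right) in each hourly library from 8-9 h to 13-14 h, on the log2(RPM + 1) scale, with the dotted line at the window boundary. Each line is 1 gene, and the 2 drawn in full colour on each side are named. The rising lines climb between 10-11 and 11-12 h, while several falling lines already decline before 10-11 h.

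At the level of single promoters, limma called 463 of 11243 TSCs higher at 11-14 h (4.12%) and 158 lower (1.41%). Their median log2 differences were 2.38 and -2.11. Windows that did not overlap were found in 16.7% of all tested TSCs upward and in 13.5% downward. The calls behaved as for genes when hours were left out: 3 TSCs were called without 8-9 h, 0 without 9-10 h or 12-13 h and 2 without 13-14 h, with between 1893 and 2631 TSCs at an unadjusted p under 0.05, while 1054 were called without 10-11 h and 643 without 11-12 h. The quasi-likelihood test of edgeR called 588 TSCs with all 6 libraries.

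Among the TSCs that rose, 338 of 463 had their largest hourly step between 10-11 and 11-12 h, as did 115 of the 158 that fell. The calls were made on this boundary, so the counts describe the called set and nothing more. Over all tested TSCs the share was 22.1%. In 321 of the 463 rising TSCs the 10-11 h library was already the highest of its window, and in 102 the level climbed at every one of the 5 steps. In 113 of the 158 falling TSCs the 10-11 h library was already the lowest of its window, and 14 were monotonic over the 6 hours. No share over all tested TSCs is given for the counts at 10-11 h and of monotonic courses.

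In reads, the TSCs that rose went from 0.692% of all reads in TSCs at 8-9 h through 1.12% and 2.31% to 5.41%, 9.59% and 10.9% at 13-14 h. Those that fell went from 4.27%, 4.53% and 3.00% to 1.16%, 0.978% and 1.12%. A few promoters carried much of this gain. The TSC at scaffold 4845, 17530105 to 17530218 on the minus strand, rose from 1427, 3588 and 9023 RPM to 15242, 32855 and 31196 RPM, and was still at 20079 RPM at 17-20 h. Its log2 difference was 2.80 ± 0.63 (SE, adjusted p = 0.043). The TSC at scaffold 4784, 1305535 to 1305796 on the minus strand, climbed at each hour, from 524.2, 1219 and 2273 RPM to 4499, 11737 and 16472 RPM, and dropped to 310.2 RPM by 17-20 h. Another, at scaffold 4929, 18541166 to 18541381 on the plus strand, went from 244.7, 558.4 and 1416 RPM to 4282, 6546 and 6221 RPM. These 3 were chosen after their values were seen, as the TSCs with the largest gain in RPM among those that limma called higher. A TSC that was not called gained more than the third of them.

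Among the TSCs that limma called lower, the largest losses in RPM came from promoters still abundant at 11-14 h. TSCs that were not called are left out of this order, and some of them lost more. The TSC at scaffold 4929, 15883433 to 15883861 on the minus strand, was at 5529, 7584 and 3527 RPM and then at 1596, 1960 and 1658 RPM, a log2 difference of -1.61 ± 0.32 (SE, adjusted p = 0.032). The TSC at scaffold 4929, 2805959 to 2806305 on the plus strand, went from 3980, 4045 and 2944 RPM to 1550, 1112 and 1710 RPM. Both remained among well-used promoters at 11-14 h and were at 2076 and 942.7 RPM at 14-17 h.

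The most abundant promoters held more of the reads in the later hours. The 10 highest TSCs of each library held 15.1%, 12.7% and 14.5% of the reads at 8-11 h and 15.6%, 17.0% and 17.3% at 11-14 h, so the windows did not overlap. The means were 14.1 ± 1.23% and 16.6 ± 0.93% (SD, n = 3), and the exact permutation test gave a two-sided p of 0.1, the smallest that 3 against 3 hours can give. Of the 17 TSCs that were among the 10 highest in any of the 6 libraries, 3 rose and 1 fell by limma. Over all tested TSCs 4.12% rose and 1.41% fell. A TSC can be among the 10 highest through its level in 1 window alone, so the 17 were in part picked for change. The single highest, a TSC of no assigned gene at scaffold 4690, 852314 to 852345 on the minus strand, held between 3.83% and 4.89% of the reads of every library, and its extremes lay at 8-9 h and 12-13 h.

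The libraries that the comparison did not use place the called promoters in the whole course. The TSCs that rose had a median level of 0.940 RPM at 2-4 h. In the windows of the test it was 3.93 and 25.9 RPM, and it then stood at 35.1 RPM at 14-17 h. It was 23.2 RPM at 17-20 h and 16.9 RPM in the last 3 hours. The median RNA level of the set thus fell after 14-17 h but stayed above the 3.93 RPM of the earlier window. Some single genes above fell back below their mean of that earlier window. Reads count RNA still present, so whether the promoters themselves stayed active was not tested. Between hours outside the comparison, 462 of the 463 had a higher level at 14-17 h than at 2-4 h, compared with 48.8% of all tested TSCs, and 134 (28.9%) had more at 20-23 h than at 14-17 h, compared with 15.5% of all. Among the unused hours, 294 of the 463 (63.5%) had their highest value at 14-17 h, 71 (15.3%) at 17-20 h and 92 (19.9%) at 20-23 h, beside 25.1%, 6.54% and 7.66% of all tested TSCs. The 463 were chosen for values that were high in the later window of the test and lower in the earlier one. The hours of 14-17 h directly follow that later window. The rise from 2-4 h to 14-17 h and the share with their highest value at 14-17 h therefore follow in large part from the choice. The 3 libraries of 4-6 h and 7-8 h were left out of the counts over unused hours after their values were seen. The rising set had a median of 3.83 and 2.20 RPM at 4-5 and 5-6 h, above the 1.23 RPM of 3-4 h and the 0 RPM of 6-7 h, and at 7-8 h a single read was worth 7.03 RPM.

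The TSCs that fell were read in the hours before the comparison too. From 33.6 RPM at 0-2 h, their median level went to 47.5 RPM at 2-4 h and 69.8 RPM at 6-7 h. It was 55.5 RPM at 8-11 h, 10.1 RPM in the later window and 3.05 RPM at the end, from 20 to 23 h. Among the hours not used, 73 of the 158 had their highest value in the first 4 h, which at 46.2% is near the 47.1% of all tested TSCs. At 6-7 h there were 74, or 46.8% against 13.6% of all, and from 14 h on 11. The 158 were chosen for high values at 8-11 h, and 6-7 h is the counted hour nearest before that window. This count too follows in large part from the choice. A value at 0-2 h can include RNA laid down by the mother, which the assay does not tell apart.

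**Figure D3:**
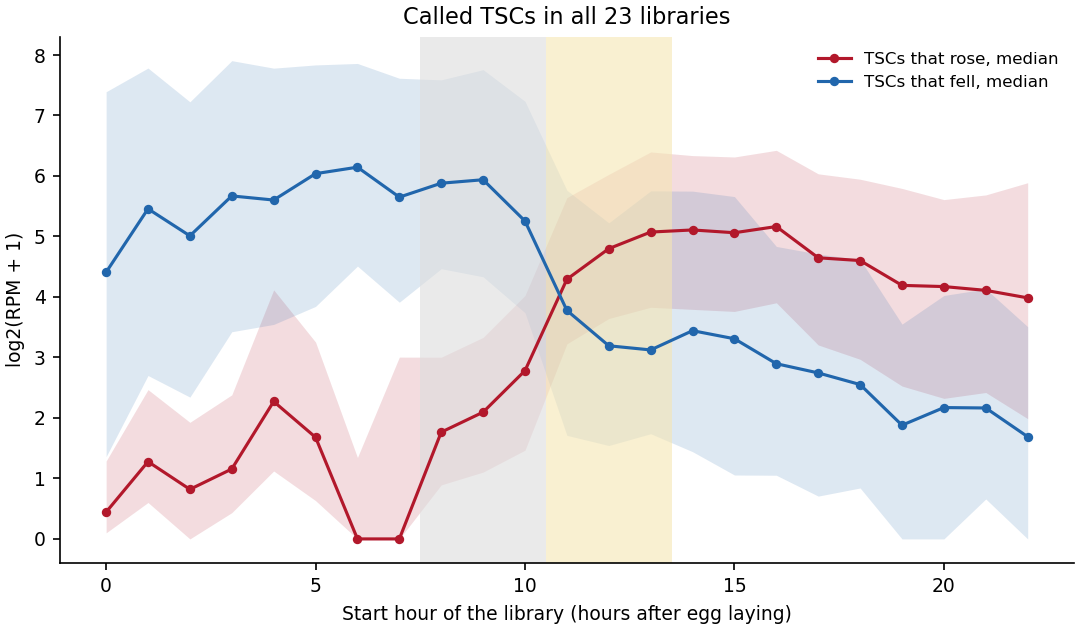
Median level (line) and middle 50% (band) of the 463 TSCs that rose (red) and the 158 that fell (blue) in all 23 hourly libraries, on the log2(RPM + 1) scale. Grey and yellow mark the 8-11 h and 11-14 h windows on which the calls were made. The curves cross between 10-11 and 11-12 h, and the rising set peaks at 34.9 RPM at 16-17 h.

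TSCs to which the authors assigned no gene made up 2120 of the 11243 tested. Of them 170 rose (8.02%) and 31 fell (1.46%), beside 4.12% and 1.41% of all TSCs. Their median log2 difference was 0.26, against -0.09 for the 9123 TSCs with a gene. They were also weaker, with a median of 6.75 RPM over the 6 hours against 19.1 RPM. Read numbers showed that 420 of these TSCs nevertheless carried a row of the gene table, with the same reads in all 23 libraries or a summed difference of at most 20%. Of these 420, 62 rose (14.8%) and 5 fell. Of the 1700 without such a row, 108 rose (6.35%) and 26 fell.

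The gene-less TSC that rose most, of 148 bp at scaffold 4770, 16814814 to 16814961 on the plus strand, was at 2.57, 7.79 and 24.4 RPM and then at 91.1, 165.8 and 155.6 RPM (log2 difference 3.85 ± 0.65 SE, adjusted p = 0.025). It was one of those that carried a row of the gene table, and that gene was among the 10 that rose most. The same held for the third in order, the TSC at 10787052 on scaffold 4770 given above. The second carried no such row: the TSC of 41 bp at scaffold 4644, 1857068 to 1857108 on the plus strand, rose from 7.03, 20.0 and 52.0 RPM to 241.3, 339.2 and 294.0 RPM, held 219.0 RPM at 14-17 h and had dropped to 15.0 RPM by 17-20 h. The nearest TSC with a gene lay 16811 bp away on the other strand and was at between 5.49 and 13.2 RPM in the 6 hours.

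Of the gene-less TSCs that fell, the one at scaffold 4929, 11306366 to 11306414 on the plus strand, fell most. It was at 71.1, 129.1 and 42.6 RPM and then at 7.21, 0.958 and 4.45 RPM, a log2 difference of -4.06 ± 0.60 (SE, adjusted p = 0.024), and at 0 RPM at 14-17 h. Its use was brief, with 3.68 RPM at 2-4 h and 30.1 RPM at 6-7 h. The TSC with a gene nearest to it, 19565 bp away on the same strand, went the other way in level, from 2.23, 1.68 and 4.70 RPM to 5.31, 20.1 and 67.6 RPM, and was not called. The TSC at scaffold 4929, 8551483 to 8551885 on the plus strand, fell from 562.6, 623.1 and 494.4 RPM to 33.0, 32.6 and 98.9 RPM and was at 181.3 RPM at 14-17 h. The TSC at scaffold 4845, 3955199 to 3955235 on the minus strand, went through 154.9, 229.0 and 82.0 RPM to 36.8, 11.5 and 8.76 RPM.

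Width differed between the sets. The median width of promoters that rose was 60 bp, against 108 bp for those that fell and 95 bp for those not called. At a like level, between 10 and 50 RPM over the 6 hours, the median widths were 70 bp for 207 TSCs that rose, 113 bp for 53 that fell and 95 bp for 3747 not called. Above 50 RPM they were 110, 135 and 122 bp. TSCs without a gene were narrower, with a median of 69 bp against 98 bp for those with a gene. They made up 170 of the 463 TSCs that rose, 31 of the 158 that fell and 2120 of all 11243 tested. Their part in the difference of width was not tested. Widths were set by the authors on the reads of the whole series, so they do not describe these hours alone.

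Called promoters were not confined to a single scaffold. On the 8 scaffolds with at least 100 tested TSCs, from 2.98% to 8.72% of the TSCs rose and from 0.671% to 1.89% fell. Of 7036 pairs of neighbouring tested TSCs at most 10000 bp apart, 34 had both members higher, 5 both lower and 3 one of each. Pairs within a gene were left out, and each TSC without a gene counted as a unit of its own. In 541 only 1 was called. Over all tested TSCs 4.12% rose and 1.41% fell. Whether neighbours shared a direction more often than these shares imply was not tested.

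A dense stretch of falling promoters lay on scaffold 4820, found after the values were seen. Of 15 tested TSCs between 6183331 and 6223694, over 40364 bp and on both strands, 7 fell and 1 rose. In 10 the later hours lay wholly below the earlier ones. Over all tested TSCs 1.41% fell, 4.12% rose and 13.5% lay wholly below. The ends of the stretch were set at falling TSCs, so its density follows in part from how it was drawn. The 4 highest of those that fell were abundant before. The TSC at 6190754 to 6190775 went through 628.2, 295.7 and 98.2 RPM to 45.5, 17.2 and 33.7 RPM. The TSC at 6221250 to 6221284 went through 731.0, 646.4 and 226.3 RPM to 143.1, 112.1 and 53.2 RPM. The TSC at 6183331 to 6183351 was at 579.3, 1025 and 409.1 RPM before and at 125.2, 100.6 and 226.6 RPM after, and that at 6196009 to 6196042 was at 330.5, 449.5 and 94.3 RPM before and at 52.4, 23.95 and 41.7 RPM after. In all 4 the 10-11 h library was the lowest of its window, and all 4 were at between 9.53 and 110.8 RPM at 14-17 h.

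On scaffold 4770, 3 TSCs without a gene rose close together, between 11990321 and 11993330 on the minus strand. They went through 1.88, 3.72 and 7.94 RPM, 2.74, 3.27 and 23.2 RPM, and 6.00, 11.8 and 27.0 RPM to 29.2, 48.9 and 70.2 RPM, 59.2, 113.1 and 117.3 RPM, and 99.0, 108.3 and 172.2 RPM. Each climbed in every hour, and their levels at 14-17 h were 19.0, 39.4 and 31.7 RPM. They share a strand and a short stretch and are not independent observations.

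Over all promoters without a gene, the share of reads did not separate the windows. It was 12.6%, 12.4% and 15.5% at 8-11 h and 14.5%, 13.5% and 15.2% at 11-14 h, with means of 13.5 ± 1.73% and 14.4 ± 0.87% (SD, n = 3) and an exact permutation p of 0.5, two-sided.

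The last question was whether genes with more than 1 promoter moved from one to the other. In 545 genes with a pair of TSCs read deeply enough, limma called a changed balance in 28, or 5.14%, at an adjusted p under 0.05. The share of the main TSC, the one with more reads over these hours, rose in 11 and fell in 17, each by at least 20 percentage points, and in 14 of the 28 the TSC in front at 8-11 h was behind at 11-14 h. In 18 of the 28 at least 1 of the TSCs was itself called, and in 0 were both called in opposite directions, by the same limma test of TSCs. Both tests use the same reads, so calls in common follow in part from that. No share over all 545 pairs is given for these counts, which describe the called set only. The pair lay more than 2000 bp apart in 15 of the 28, beside 260 of the 545 tested. These calls also rested on single hours: 0 were called without 8-9 h, 9-10 h or 13-14 h, 1 without 12-13 h and 9 without 11-12 h, against 36 without 10-11 h. A quasi-binomial model of the read numbers called 0 of 545, with 118 at an unadjusted p under 0.05, against 94 by limma.

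The gene ranked first by adjusted p lay on the plus strand of scaffold 4770. Its TSC at 6188308 to 6188362 held 86.1%, 83.7% and 80.4% of the reads of the pair at 8-11 h and 45.2%, 40.4% and 26.7% at 11-14 h. The windows were far apart and the pair had between 56 and 337 reads an hour. The main TSC itself changed little, from 18.0, 17.3 and 13.2 RPM to 14.4, 22.0 and 13.4 RPM, while the second, 4740 bp downstream at 6193102 to 6193192, rose from 2.91, 3.36 and 3.23 RPM to 17.5, 32.6 and 36.7 RPM. The log2 ratio moved by -3.07 ± 0.43 (SE, adjusted p = 0.040).

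In the second gene, on the minus strand of scaffold 4644, the called TSC was the main one, at 1902753 to 1902841. It held 20.4%, 28.1% and 26.6% of the pair before and 63.9%, 76.1% and 83.7% after, with a log2 ratio change of 3.20 ± 0.46 (SE, adjusted p = 0.040). Its level rose from 26.6, 31.7 and 33.8 RPM to 132.1, 149.5 and 216.0 RPM. The other TSC of the pair, at 1908605 to 1908803, went from 103.3, 80.9 and 93.5 RPM to 74.8, 47.0 and 42.2 RPM and was not called.

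The remaining 2 genes lay on scaffold 4929. In the one on the plus strand, a second TSC only 247 bp downstream of the main one rose from 1.54, 1.68 and 3.53 RPM to 17.8, 13.4 and 33.8 RPM, and the share of the main TSC at 7983360 to 7983456 went from 90.5%, 92.6% and 88.5% to 62.7%, 63.2% and 53.0%. In the one on the minus strand, the main TSC at 8215872 to 8216030 went from 81.1%, 75.7% and 71.9% to 33.3%, 42.9% and 41.3%. This last pair was thin, with 53, 107 and 32 reads and then 33, 21 and 150 reads, so that the interval of the share at 12-13 h ran from 24.5% to 63.5%. In 3 of these 4 genes the called member of the pair was the second TSC, which rose, and in the remaining one it was the main TSC, which also rose.

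**Figure D4:**
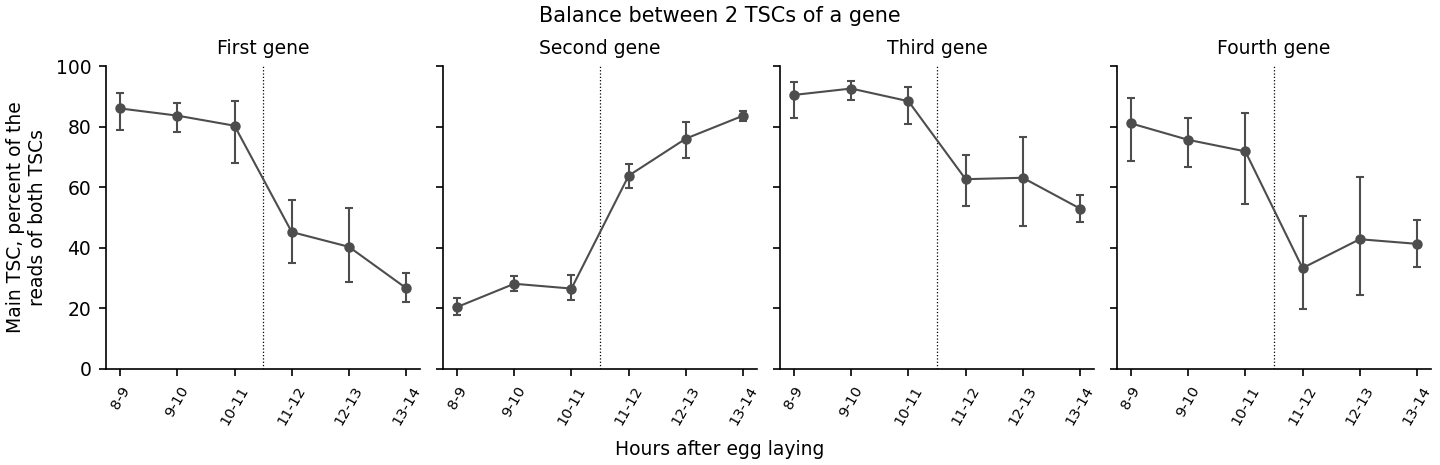
Share of the main TSC in the reads of a pair, in percent, in each hourly library from 8-9 h to 13-14 h, for the 4 genes with the smallest adjusted p. Bars are 95% Wilson intervals of the read numbers and cover counting error only, and the dotted line marks the window boundary. In 3 of the genes the share fell, and in the gene drawn in the second panel it climbed from 20.4% to 83.7%.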

How the data were processed

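RAMPAGE libraries of 23 hourly samples of whole embryos were deposited, of which 6 entered the tests. Per the labels, the barcoded samples went through library preparation in 1 pool, after removal of RNAs with a 5′ monophosphate. The authors mapped reads with STAR to FlyBase release 1.3 and called TSCs on the pooled reads of the series. They deposited RPM values for genes and for TSCs, and other columns with the positions of the TSCs, which are given 1-based. Whole reads were recovered from the deposited RPM values, within 0.01 reads, for 100% of the 379172 values above 0 of the TSC table and all but 1 of the 185320 of the gene table. How multi-mapping reads were counted is not given in the sources used here, so near-identical genes may share reads. Some rows of the gene table had the same values, such as a pair with means of 25.9 RPM at 8-11 h and 39.7 RPM at 11-14 h. Counts of genes are therefore counts of rows. A table of smoothed, aligned gene scores and the score of each TSC were not used.

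The difference between windows was tested with limma 3.58.1 (trend) on log2(RPM + 1), which understates changes of low genes, over features kept by filterByExpr of edgeR 4.0.16 (minimum count 10). Calls needed a p under 0.05 after Benjamini-Hochberg adjustment. Balance was tested by limma on the log2 ratio of the reads of 2 TSCs, with 0.5 reads added, for genes with at least 500 reads in the 6 libraries, at least 10% in the second TSC and at least 10 reads an hour. Shares used the exact permutation test. DESeq2 1.42.0, R 4.3.3, Python 3.11.15, pandas 2.3.3 and scipy 1.17.1 were used, and the tests were tried on simulated data. Intervals are 95% Wilson intervals and, with no molecular identifiers, cover counting error only. Named were, among called features with at least 10 RPM in the higher window and windows that do not overlap, the 10 genes and 3 gene-less TSCs with the largest log2 difference in each direction, and the 4 genes with the smallest adjusted p for balance. Of gene identifiers, 2 that rose and 2 that fell are printed. A row of the gene table with at least 100 reads was linked to a TSC by identical reads in all 23 libraries (4238 rows), by the sum over the TSCs of a gene (1513) or by a summed difference of at most 20% (1973), and 482 were not linked. These links come from the data and not from an annotation. Ages and not values define the windows, but this pair of windows and the rules above were chosen with earlier results of these data known.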

Additional observations from a re-analysis of the deposited data

How the results depend on the processing

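No paired analysis was possible because the hours of a window are successive ages and nothing pairs an hour of one window with an hour of the other. The count of 378 changed genes moved to 1121 by DESeq2, 734 with 15 libraries of 8-23 h in the fit, 716 without the hours at the boundary and 974 with a linear slope of the hour. The count of 621 changed TSCs moved to 295 with no filter on low counts (22254 tested), 1590 by DESeq2, 1203 with 15 libraries, 1664 without the boundary hours and 1434 with the slope. The 28 changed balances became 0 in a quasi-binomial model. Leaving out 1 hour gave from 0 to 553 genes, from 0 to 1054 TSCs and from 0 to 36 balances. The cause of these moves was not tested. Other pseudocounts, TMM scaling and edgeR left the counts of genes and TSCs within 1.5 times. The difference in the share of gene-less reads, 0.914 percentage points, ranged from 0.350 to 1.91 when 1 hour was left out, and that in the 10 highest TSCs, 2.52 points, from 1.83 to 3.04 (alternatives added after seeing the data). No direction reversed among the 20 named genes, 6 gene-less TSCs, 4 balances and 2 shares, wherever they could be fitted. In the named genes, TSCs and balances the windows did not overlap, so leaving out an hour could not reverse their direction. With 1 sample an hour, the error of a single age could not be measured, and at 12-13 h a count of 0 allows up to 2.87 RPM.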
